A study of Gallus gallus with 9 samples.

Results

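Lactate dehydrogenase A and B and the glycolytic enzymes HK1, GPI, TPI1, PGK1, PGAM1 and ENO1 were examined in circulating red blood cells (RBC), non-red blood cells (nRBC) and heart of the chicken embryo. These 8 genes are carried by 13 of the 38439 probe sets of the array that are not controls, and 13009 gene symbols are annotated on it in all. A probe set was taken where its annotated symbol was that of the gene. PGK1 was the exception: its single probe set is annotated PGK2, for a gene whose listed synonyms include PGK1, and it is called PGK1 here. The genes were chosen by their measured signals on these same 9 arrays, with the contrasts between fractions, stages and heart in view. Their differences are therefore given as a description with no p-value. Counts of members that passed a test over all probe sets are printed, but nothing is read from them.

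Blood was drawn from embryonic hearts at E4 and E6 (embryonic day 4 and 6) and separated on a density gradient into a heavy RBC and a light nRBC fraction, with 2 arrays for each fraction and stage and 1 array of E6 heart. The duplicate arrays of a group held RNA from separate pools of embryos, and the sources name no treatment, strain or altered allele. The heart is E6 in its label and in the methods, but E4 in the heading of the deposited values. Its single array has no replicate check. The sources do not say whether RBC and nRBC arrays shared pools.

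Glycolysis splits glucose into pyruvate and yields ATP without oxygen. Lactate dehydrogenase then exchanges pyruvate and lactate, restoring the NAD+ that glycolysis uses. The enzyme is a tetramer of A (muscle-type) and B (heart-type) subunits in any mixture: the A subunit is known from tissues that make lactate, and the B subunit from heart and other well-oxygenated tissues. Mature bird erythrocytes keep their nucleus and mitochondria, unlike those of mammals, and are known for a low use of glucose.

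Signals are given as log2 values after quantile normalization, so that 1 unit is a doubling. A probe set is called Present or Absent on each array by the detection test of the array software. The level of a probe set can be compared between arrays but not with that of another probe set, because each binds with its own efficiency.

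The fractions were also described by marker genes, which, like the members, were chosen with earlier results of these data known. Of 11 leukocyte and macrophage markers, 9 were Present on no RBC array. The summed signal of the 11 was 194 to 333 on the RBC arrays and 2525 to 5363 on the nRBC arrays. Of these markers MARCO had a lower mean in nRBC (4.75) than in RBC (5.29), and C1QC was Present on no blood array. Of 5 thrombocyte markers, ITGB3, GP9, RGS18 and F13A1 were Present on every nRBC array and on no RBC array, whereas TUBB1 was Present on all 8 blood arrays, at 12.47 ± 0.37 in RBC and 11.65 ± 0.63 in nRBC (SD, n = 4 each). The summed signal of 10 red blood cell markers, mostly globin signal, did not separate the fractions. It was 61821 to 72665 on the RBC arrays and 53982 to 75214 on the nRBC arrays. Globins read 12.97 to 13.77 on all blood arrays. Whether quantile normalization at such high values or red cell RNA in the nRBC fraction kept them alike was not tested. Of the other markers, EPB42 (12.59 in RBC, 11.45 in nRBC), SLC4A1 (12.61, 11.94) and TAL1 (9.31, 8.54) had lower means in nRBC. RHAG and the probe set taken for ALAS2, annotated ALAS1, had higher ones. By QPCR the paper found hemoglobins higher in RBC, and its nRBCs were benzidine negative. Summed cardiac muscle and fibroblast markers were also higher on the nRBC than on the RBC arrays, and their source was not tested. The sum of 20 cardiac muscle markers was 242 to 336 in RBC, with 16 of them Present on no RBC array, 1632 to 6849 in nRBC and 84926 in heart, and that of 12 fibroblast markers was 185 to 231, 2209 to 7727 and 23038. The cardiac muscle markers RYR2 and TTN and the fibroblast marker PDGFRA had lower means in nRBC, and the rest of both lists higher ones. The sum of 13 endothelial markers was 340 to 820 in RBC and 765 to 1343 in nRBC. None of them was Present on an RBC array, and 5 were Present on no nRBC array. The means of FLT1, EGFL7 and ESAM were lower in nRBC and those of the rest higher. Replicate 1 of E6 nRBC stood apart, with the highest cardiac, fibroblast, leukocyte, thrombocyte and red cell sums of the nRBC arrays and a GAPDH 3′ to 5′ signal ratio, which rises as RNA is degraded, of 12.7 against 4.22 to 5.99 on the other nRBC arrays and 9.44 to 11.1 on the RBC arrays. The part of these other cells and of RNA quality in the differences below was not tested. In such bulk samples, fewer cells of a type and less RNA per cell cannot be told apart.

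LDHA, which encodes the A subunit, had the widest range of the 8 genes. Its deposited signals were 27.2 and 3.1 on the E4 RBC arrays, 26.4 and 56.8 on the E6 RBC arrays, 3635 and 8954 on the E4 nRBC arrays, 2717 and 4423 on the E6 nRBC arrays and 1263 in heart. After normalization these were 5.51, 0.95, 5.56 and 5.39 in RBC, 11.89, 12.55, 11.97 and 12.21 in nRBC, and 10.05 in heart. The lowest nRBC array thus lay far above the highest RBC array, and the heart lay between the fractions. The transcript was Present on 3 of 4 RBC arrays and Absent on replicate 2 of E4 RBC, which alone read near 1.

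The LDHA mean was 4.36 ± 2.27 in RBC and 12.15 ± 0.30 in nRBC (SD, n = 4 each), a difference of 7.80 ± 0.97 (SE) or 223-fold. Replicate 2 of E4 RBC set much of the spread in RBC. Without that array the difference was 6.66, or 101-fold. It was 8.99 at E4 and 6.61 at E6, and the E4 value became 6.70 when the array was left out.

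LDHB, which encodes the B subunit, was Present on all 9 arrays. Within each stage both nRBC arrays read above both RBC arrays, but the fractions overlapped with the stages pooled. Such an order rests on 2 arrays against 2, and the share of all probe sets with it was not counted. Its values were 10.65 and 11.95 in E4 RBC, 8.77 and 8.69 in E6 RBC, 12.31 and 12.22 in E4 nRBC, 11.07 and 12.12 in E6 nRBC, and 13.09 in heart, the highest of the 9. The fractions overlapped because replicate 2 of E4 RBC read above replicate 1 of E6 nRBC. The mean was 10.02 ± 1.58 in RBC and 11.93 ± 0.58 in nRBC (SD, n = 4 each), a difference of 1.91 ± 0.74 (SE) or 3.76-fold. By stage the difference was 0.96 ± 0.64 at E4 and 2.86 ± 0.64 at E6 (SE). Without replicate 2 of E4 RBC, the E4 difference was 1.62.

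The balance of the isoforms was followed as log2 LDHA minus log2 LDHB within each array. Because the probe sets differ in efficiency, the value is read between arrays and not as a ratio of transcripts. It was -5.14 and -11.00 in E4 RBC, -3.21 and -3.30 in E6 RBC, -0.42 and 0.33 in E4 nRBC, and 0.90 and 0.09 in E6 nRBC. In heart it was -3.04. Every nRBC array therefore lay above every RBC array and above the heart, and the heart array lay next to the E6 RBC arrays. From RBC to nRBC the mean moved by 5.89 toward LDHA, from -5.66 ± 3.67 to 0.23 ± 0.55 (SD, n = 4 each). Without replicate 2 of E4 RBC, at which LDHA was Absent, the shift was 4.10.

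**Figure D1:**
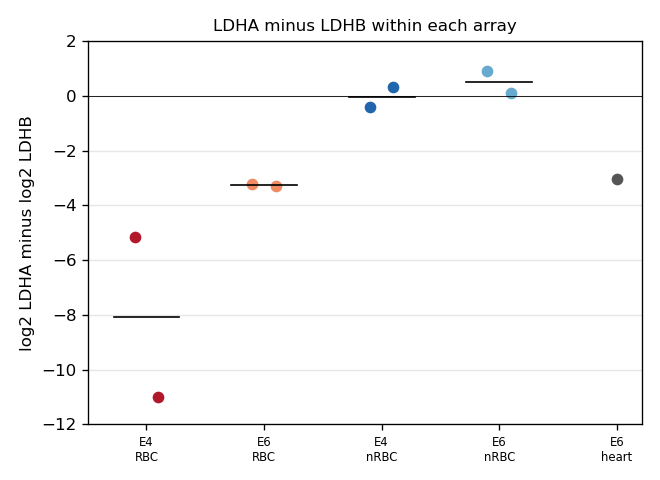
Log2 LDHA minus log2 LDHB on each of the 9 arrays (points), by stage and tissue, with a bar at the mean of the 2 arrays of a blood group. The nRBC arrays lie between -0.42 and 0.90, the RBC arrays between -11.00 and -3.21, and the heart at -3.04.

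HK1, hexokinase 1, which phosphorylates glucose at the entry to the pathway, showed the next largest difference. Its main probe set, the brightest of 3 over the blood arrays, read 5.46 and 6.26 in E4 RBC, 5.14 and 4.87 in E6 RBC, 8.50 and 8.43 in E4 nRBC, 8.41 and 8.58 in E6 nRBC, and 10.37 in heart. The nRBC arrays were tightly grouped, with no overlap with RBC. The means were 5.43 ± 0.60 in RBC and 8.48 ± 0.08 in nRBC (SD, n = 4 each), a difference of 3.05 ± 0.39 (SE) or 8.26-fold. The other HK1 probe sets gave differences of 2.90 and 4.68 in the same direction. The latter was Absent on both E6 RBC arrays, 1 of which read 0.60, so that the size of its difference rests in part on values not above background. The former was Present on no RBC array, so that its 7.44-fold difference is a lower bound (at least 7.44-fold higher, taking on each RBC array the higher of its own value and the lowest Present signal).

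GPI, glucose-6-phosphate isomerase, makes fructose-6-phosphate in the following step. Its main probe set read 10.12 and 11.20 in E4 RBC, 9.16 and 10.14 in E6 RBC, 11.83 and 12.17 in E4 nRBC, 11.92 and 11.15 in E6 nRBC, and 12.18 in heart. With the stages pooled the fractions overlapped by a narrow margin, between replicate 2 of E4 RBC and replicate 2 of E6 nRBC. Within each stage, again 2 arrays against 2 and with the share of all probe sets not counted, both nRBC arrays were above both RBC arrays. The difference was 1.61 ± 0.48 (SE) or 3.06-fold, and the other probe sets gave 1.03 and 2.39. The probe set with the 2.39 difference was Present on no RBC array and is at least 5.23-fold higher in nRBC.

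TPI1, triosephosphate isomerase, interconverts the 3-carbon sugars of the pathway. It read 8.94 and 9.28 in E4 RBC, 7.30 and 7.91 in E6 RBC, 10.91 and 10.98 in E4 nRBC, 9.97 and 10.48 in E6 nRBC, and 11.09 in heart. Each nRBC array was above each RBC array. The difference was 2.23 ± 0.51 (SE) or 4.68-fold.

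PGK1, phosphoglycerate kinase, catalyses the earlier ATP-forming step. It read 8.70 and 8.89 in E4 RBC, 7.94 and 7.02 in E6 RBC, 10.80 and 11.13 in E4 nRBC, 9.14 and 10.80 in E6 nRBC, and 11.18 in heart. Replicate 1 of E6 nRBC was far below the other nRBC arrays and only just above the RBC arrays. The difference was 2.33 ± 0.58 (SE) or 5.02-fold, and 2.79 without that array.

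PGAM1, phosphoglycerate mutase, and ENO1, enolase 1, carry out the steps before pyruvate kinase and showed the smallest differences. PGAM1 read 8.99 and 8.35 in E4 RBC, 8.84 and 8.66 in E6 RBC, 9.94 and 9.53 in E4 nRBC, 9.43 and 9.42 in E6 nRBC, and 11.30 in heart. The difference of 0.87 ± 0.34 (SE) was 1.83-fold with no overlap between fractions. ENO1 read 12.60 and 12.79 in E4 RBC, 11.88 and 11.56 in E6 RBC, 13.28 and 13.16 in E4 nRBC, 12.64 and 12.84 in E6 nRBC, and 13.34 in heart. Its difference was 0.77 ± 0.40 (SE) or 1.71-fold, and 0.69 without quantile normalization. Some of its nRBC values were as high as those of the globins, and the part of such high values in the small difference was not tested. For ENO1 the fractions overlapped with the stages pooled but not within either stage, where 2 arrays stood against 2. The share of all probe sets with that order was not counted.

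The weaker ENO1 probe set did not follow the main one. It gave a difference of -0.31 ± 1.21 (SE), with 3.21 and an Absent call on replicate 1 of E6 nRBC against 8.08 to 9.13 on the other nRBC arrays. The direction for ENO1 therefore rests on its main probe set.

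**Figure D2:**
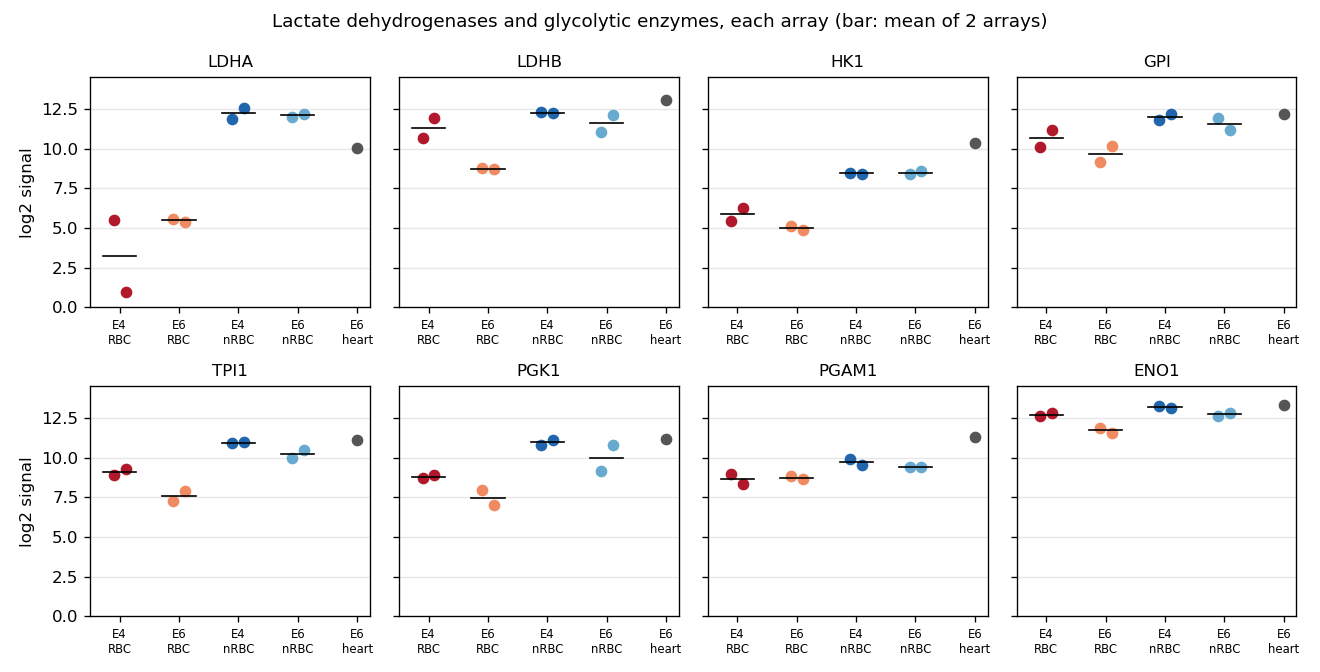
Log2 signal of the main probe set of each of the 8 genes on each of the 9 arrays (points), with a bar at the mean of the 2 arrays of a blood group. LDHA runs from 0.95 to 12.55, whereas ENO1 stays between 11.56 and 13.34.

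Over the 8 main probe sets, all 8 means were higher in nRBC, with a median difference of 2.07 against -0.20 over all probe sets. The median of all probe sets was 0.02 without quantile normalization. Relative to the median of all probe sets the difference was 0.97 for ENO1, the smallest of the 8, and 0.68 without quantile normalization. LDHA, HK1 and TPI1, 3 of the 8, reached a limma adjusted p under 0.05, where 4.56% of all probe sets were called higher in nRBC. None of the 8 was called lower, where 0.809% of all probe sets were. LDHA, HK1, TPI1, PGK1 and PGAM1, 5 of the 8, had every nRBC array above every RBC array, where 7.97% of all probe sets did. As the fraction contrast was used to choose the genes, nothing is read from these counts. Without replicate 1 of E6 nRBC 3 genes, LDHA, HK1 and PGK1 but not TPI1, were called and 7 did not overlap. Of all probe sets 3.28% and 9.86% did so. Without replicate 2 of E4 RBC 4 were called and 8 did not overlap, where 4.02% and 9.52% of all probe sets did so. Leaving out any other blood array left only LDHA and HK1 called, where 2.99% to 4% of all probe sets were. In those cases 5 to 6 members did not overlap, where 8.87% to 9.51% of all probe sets did not.

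**Figure D3:**
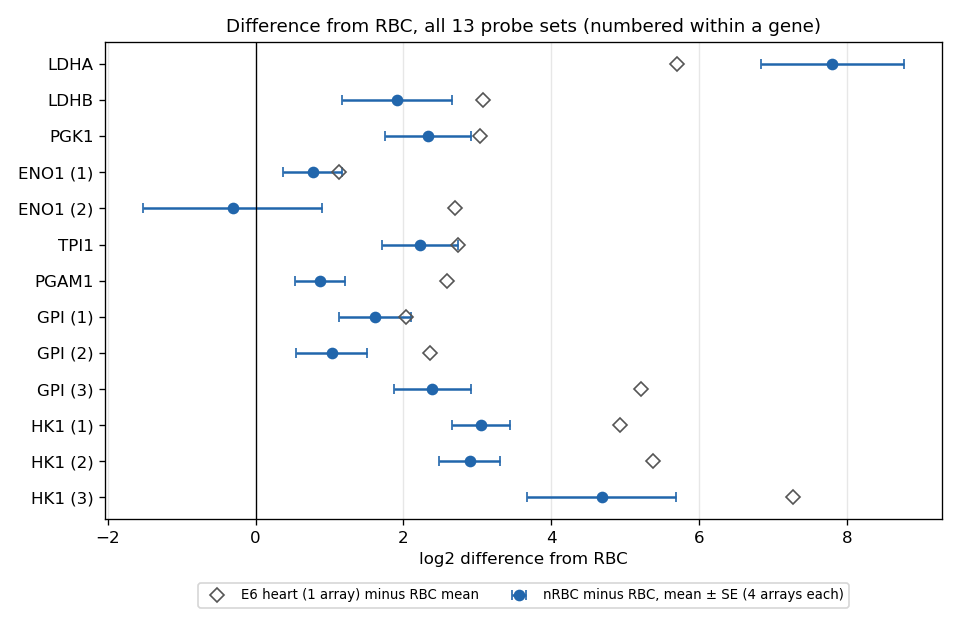
Log2 difference from the RBC mean for the 13 probe sets, as nRBC mean ± SE (filled circles, 4 arrays each) and the single heart array (open diamonds). LDHA has the largest nRBC difference at 7.80 and is the probe set at which the heart, at 5.69, falls short of nRBC.

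The heart exceeded the RBC mean by more than 1 unit for each of the 8 genes. It exceeded the nRBC mean for 7 of 8, by 0.36 (ENO1) to 1.89 (HK1). The shares of all probe sets that did so were not counted, and nothing is read from either count. The median of heart minus nRBC over the 8 was 0.61. It was -0.04 over all probe sets and -0.26 over those Present on all 8 blood arrays. HK1, PGAM1 (1.72) and LDHB (1.16), 3 of the 8, were more than 1 unit above the nRBC mean, as were 18.8% of all probe sets. LDHA alone, 1 of the 8, was more than 1 unit below, at -2.10, as were 17.9% of all probe sets. The heart contrast, too, was in view when the genes were chosen. The lactate dehydrogenases thus differed in where they read highest, LDHA in nRBC and LDHB in heart. Each of the 4 nRBC arrays read above the heart for LDHA and below it for LDHB.

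Mean values were lower at E6 than at E4 for 6 of the 8 genes in RBC and 7 of the 8 in nRBC, but no stage difference of any probe set on the array passed limma at an adjusted p under 0.05. The count was 0 in RBC, 0 in nRBC and 0 for the difference between them, with 3058, 1696 and 2036 probe sets at an unadjusted p under 0.05. In RBC the median difference of the 8 genes was -0.99 (0.02 over all probe sets), and in nRBC -0.47 (-0.01 over all).

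In RBC, LDHB had the most negative E6 minus E4 difference of the 8, at -2.57 ± 0.64 (SE), followed by TPI1 (-1.50 ± 0.51), PGK1 (-1.31 ± 0.69), GPI (-1.01 ± 0.64), ENO1 (-0.98 ± 0.47) and HK1 (-0.86 ± 0.51). For LDHB, TPI1, PGK1, ENO1 and HK1, 5 of the 8, both E6 arrays were below both E4 arrays, as for 19.7% of all probe sets. PGAM1 differed by 0.08 ± 0.50 (SE). LDHA differed by 2.25 ± 1.31 (SE) in the other direction. That value rested on replicate 2 of E4 RBC and was -0.04 without it. The same array also weighed on other members: without it the difference was -0.47 for GPI, -0.46 for HK1, -1.91 for LDHB and -0.24 for PGAM1. None of the 8 had both E6 arrays above both E4 arrays, as 19.1% of all probe sets did.

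In nRBC the stage differences ran from -0.99 ± 0.69 for PGK1 to 0.03 ± 0.51 for HK1 (SE). They were smaller in size than in RBC except for PGAM1, at -0.31 in nRBC and 0.08 in RBC. Without replicate 2 of E4 RBC, the RBC values of LDHA (-0.04) and GPI (-0.47) were no larger than those in nRBC either. LDHB, TPI1, PGAM1 and ENO1, 4 of the 8, had both E6 arrays below both E4 arrays, as for 16.1% of all probe sets. Leaving out replicate 1 of E6 nRBC changed the nRBC values unevenly. The difference went from -0.67 to -0.14 for LDHB, from -0.99 to -0.16 for PGK1, from -0.72 to -0.47 for TPI1 and from -0.48 to -0.36 for ENO1. It was nearly the same for PGAM1 (-0.31 and -0.32), and for GPI it went the other way, from -0.47 to -0.84. LDHA differed by -0.13 ± 1.31 (SE) between stages in nRBC, and its 4 nRBC arrays overlapped between E4 and E6.

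**Figure D4:**
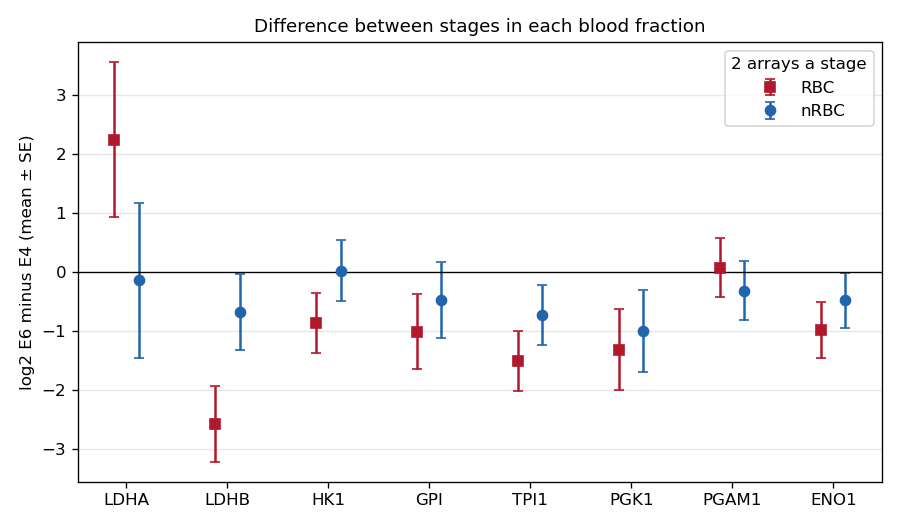
Log2 E6 minus E4 (mean ± SE from the 4-group fit, 2 arrays a stage) for the 8 genes in RBC (squares) and nRBC (circles). LDHB in RBC is the lowest at -2.57; the positive value of LDHA in RBC, 2.25, rests on 1 low E4 array.

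Other enzymes of glycolysis were read from a list of which 18 genes were measured. Between fractions 5 passed the limma test higher in nRBC, none lower and 13 did not pass, with a median of 0.83. Over all probe sets 4.56% were called higher and 0.809% lower. Unless stated, the counts of this and the following lists are of main probe sets only. GAPDH, the dehydrogenase whose NADH lactate dehydrogenase reoxidizes, rose from 9.81, 10.12, 8.89 and 9.08 in RBC to 12.18, 12.81, 11.59 and 11.87 in nRBC, a difference of 2.64 ± 0.44 (SE) with a limma adjusted p of 0.00811. The 4 GAPDH control probe sets of the array gave 2.39 to 2.81, so that the gene often used as a loading control moved with the members. PFKFB1, which makes the allosteric activator of phosphofructokinase, was Present on no RBC array and was at least 12.2-fold higher in nRBC (limma adjusted p 0.00347). PFKP, a phosphofructokinase subunit, rose by 2.17 ± 0.51 (SE, limma adjusted p 0.0419), a call lost in 13 of 20 alternative settings. PFKL and ALDOC also passed but were not Present on every nRBC array. Pyruvate kinase, annotated PKLR, was higher by 1.60 without passing (limma adjusted p 0.0984). It is named outside the rule for naming genes given below.

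BPGM, which in red cells of mammals makes 2,3-bisphosphoglycerate, ran the other way without passing. BPGM and the lactate transporters SLC16A1 and SLC16A3 were named after their values were seen. BPGM read 10.80, 9.28, 12.34 and 11.85 in RBC and 9.18, 7.68, 11.06 and 10.07 in nRBC, a difference of -1.57 ± 0.85 (SE, limma adjusted p 0.351). In both fractions its E6 arrays were above its E4 arrays, unlike those of the 5 members that were lower at E6 in RBC.

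Glucose and lactate transport had 18 measured genes, of which 2 rose in nRBC, none fell and 16 did not pass (median -0.06). Counting every probe set, 3 genes rose and 1 fell. EMB, embigin, an ancillary subunit of lactate transporters, rose by 4.58 ± 0.49 (SE, limma adjusted p 0.000831), from 5.53, 4.39, 5.67 and 4.71 in RBC to 10.55, 9.33, 8.85 and 9.90 in nRBC, with 7.92 in heart. SLC2A3, a glucose transporter that the array annotates SLC2A14, rose by 2.63 ± 0.38 (SE, limma adjusted p 0.00388), and its heart value of 6.23 lay among those of RBC, 5.78 to 7.09. Embigin thus repeated the order of LDHA, with nRBC above heart and heart above RBC.

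The monocarboxylate transporters, which move lactate and pyruvate across the membrane, gave values in opposite directions. SLC16A3, the transporter known from lactate-exporting tissues in mammals, read 4.97 to 6.30 in RBC and 9.38, 8.23, 6.51 and 9.22 in nRBC, a difference of 2.66 ± 0.66 (SE) that missed the threshold at a limma adjusted p of 0.0502. SLC16A1 read 11.48, 11.55, 11.75 and 11.50 in RBC and 10.52, 10.48, 11.18 and 10.27 in nRBC by its main probe set, a difference of -0.96 ± 0.35 (SE, limma adjusted p 0.168). The fractions did not overlap for either gene. Of the weaker SLC16A1 probe sets, the pair Present on every RBC array passed as lower in nRBC, by -1.53 and -1.92 (limma adjusted p 0.0206 and 0.0185).

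**Figure D5:**
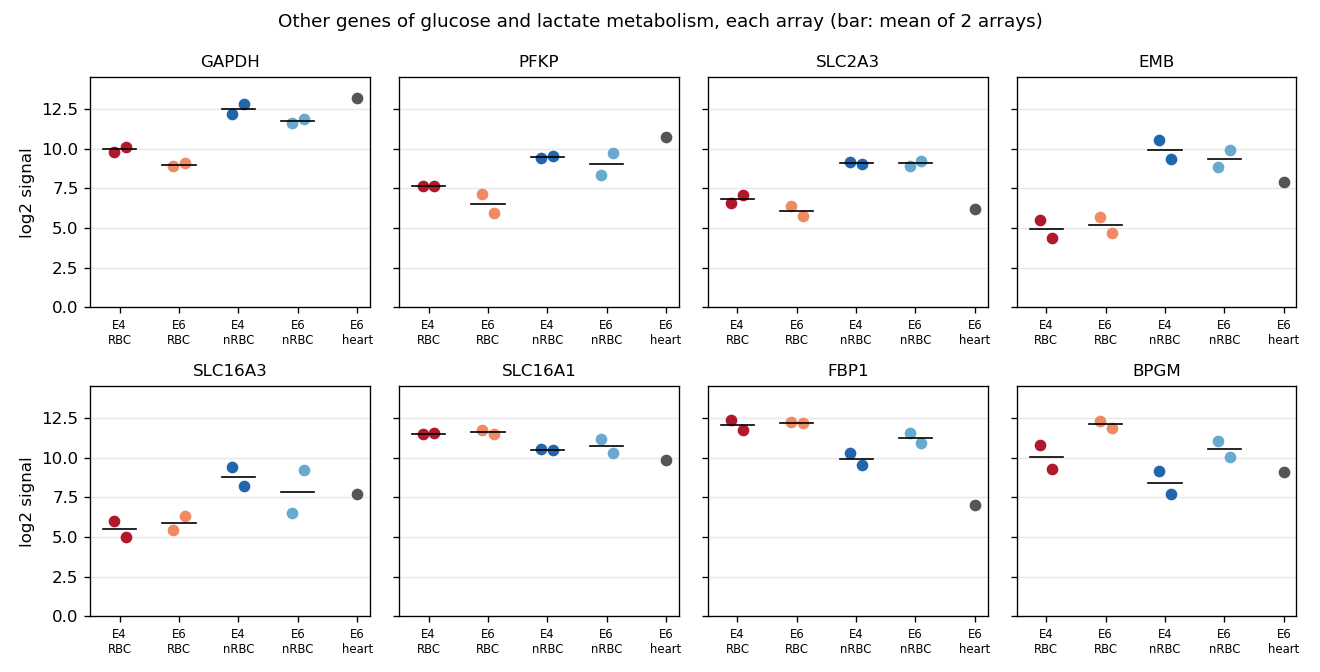
Log2 signal of 8 other genes of glucose and lactate metabolism on each of the 9 arrays (points), with a bar at the mean of the 2 arrays of a blood group. GAPDH, PFKP, SLC2A3, EMB and SLC16A3 are higher in nRBC than in RBC on average, whereas the means of SLC16A1, FBP1 and BPGM are lower, by 0.96, 1.56 and 1.57 units.

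For the fates of pyruvate and the NADH shuttles, of 24 measured genes 1 rose, none fell and 23 did not pass (median 0.13). Counting every probe set, 2 genes rose and 1 fell. The gene that rose by its main probe set was PDK4, a kinase that shuts off pyruvate dehydrogenase. It was Present on no RBC array and at least 5.35-fold higher in nRBC (limma adjusted p 0.0103). GPT2, an alanine aminotransferase, had a difference of -1.15 (limma adjusted p 0.157). Gluconeogenesis had 7 measured genes, none of which passed (median -1.06). FBP1, fructose-1,6-bisphosphatase, which opposes phosphofructokinase, read 12.39, 11.75, 12.24 and 12.18 in RBC, 10.30, 9.56, 11.58 and 10.90 in nRBC, and 7.02 in heart, a difference of -1.56 ± 0.47 (SE, limma adjusted p 0.107). G6PC2 differed by -1.17 (limma adjusted p 0.0845).

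The pentose phosphate pathway, the other route of glucose-6-phosphate, had 5 measured genes, none of which passed (median 0.90), with TALDO1 and PGD higher by 1.10 and 1.09 (limma adjusted p 0.148 and 0.226). Of 11 glycogen genes 1 rose, 1 fell and 9 did not pass (median -0.38). With every probe set counted, 1 rose and 2 fell. PYGL, glycogen phosphorylase, was at least 3.93-fold higher in nRBC (limma adjusted p 0.0366), and GYS2, which passed as lower, was Present on no array. Of 20 genes of the hypoxia-inducible factor pathway, a known regulator of glycolytic genes in mammals, 2 rose, none fell and 18 did not pass (median -0.03). With every probe set counted, 2 rose and 1 fell. The risers were NDRG1, at least 14.7-fold higher (limma adjusted p 0.00744), and ARNT2, higher by 2.06 (limma adjusted p 0.0397).

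The genes whose pattern over the 9 arrays was nearest to those of the lactate dehydrogenases were sought among 5442 probe sets. Each had 1 symbol and was Present on all 9 arrays. The measure was the root mean square distance of log2 values, each centred on its own mean. Nearest to LDHA were TESC, TMSB4X, CKB, PGRMC1 and ACTB, at distances of 1.84, 1.87, 1.87, 1.99 and 2.13 units. Their own differences between fractions were 3.82 to 5.46, against 7.80 for LDHA, which itself was Absent on 1 array. In a choice made after seeing the data, calls on the RBC arrays were not asked for, which left 7916 probe sets. LIMD2, FAM105A, GNAL, HAVCR1 and PARP8 were then nearer, at 1.01 to 1.21 units, each of them Present on no RBC array. Nearest to LDHB were WWC3, PPFIBP1, ACO1, EFHD1 and HSP90AA1, at 0.41 to 0.56 units. The 9 arrays share the grouping by fraction, stage and heart, and the likeness is a description of these arrays only.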

How the data were processed

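The authors hybridized biotin-labelled RNA (2-cycle labelling) of 9 samples to Affymetrix chicken arrays. The deposited values are MAS5 signal intensity per probe set, not scaled between arrays (blood array medians 11.4 to 33.3), with Present, Marginal and Absent calls. The series matrix, deposited as log2 values, held the same signals with each array's mean subtracted. The genome build and the version of the array software that made the signals are not given in the sources used here.

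Signals of 0 (11 on the blood arrays) were set to 0.1, and log2 values of the blood arrays were quantile normalized, the heart being mapped onto the resulting quantiles. The 96 control probe sets were left out of tests. limma 3.58.1 in R 4.3.3 compared 4 nRBC with 4 RBC arrays, stages pooled, and E6 with E4 in a 4-group model, with Benjamini-Hochberg adjustment over 38439 probe sets. limma took the place of the SAM method used by the authors. The p-values of the stage contrasts rest on the spread between pools of a group. Those of the fraction test, and its SE values, also hold the difference between stages, because stages were pooled. No interval for depth exists for arrays, whose number limits the precision. The brightest probe set over the blood arrays stood for a gene, and its symbol came from the platform annotation (27168 probe sets had 1 symbol). SE values come from the same fits. Other genes were named from each pathway list where they passed, up to 5 per direction and only if Present throughout the higher fraction, or else as the 2 with the lowest p. The scripts were tested on simulated data. The members, lists and markers were chosen with earlier results of these data known. Alternatives in scaling, filtering, model and arrays were run.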

Additional observations from a re-analysis of the deposited data

Results flagged for a closer look

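In 68 groups of 4 arrays (34 probe sets in each fraction) the array farthest from the rest was examined by Dixon's ratio, the gap to its neighbour over the whole range, against Dixon's critical value for 4 samples. Chance passes about 1 in 20 groups, and 4 passed here. LDHA on replicate 2 of E4 RBC read 0.95, with the next RBC array at 5.39 (ratio 0.963), and its call was Absent. LDHB on replicate 1 of E6 nRBC read 11.07, with the next nRBC array at 12.12 (ratio 0.847). PGK1 on the same array read 9.14, with the next at 10.80 (ratio 0.836). PFKFB1 on replicate 1 of E4 RBC read 4.38, with the next RBC array at 5.08 (ratio 0.837), and was Present on no RBC array. Replicate 1 of E6 nRBC is also the array with the highest cardiac marker sum and the highest GAPDH 3′ to 5′ ratio among nRBC, and their part in the low LDHB and PGK1 values was not tested.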

How the results depend on the processing

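The 8 genes were above RBC in nRBC by their main probe sets in all 20 alternatives, with a median of 1.67 to 2.54. The filter on Present calls, the series matrix, the intensity trend, the 4-group mean and the replicate block left that median at 2.07. They do not alter the mean differences and so are no further check of the direction. Of the members 0 to 6 were called and 3 to 8 did not overlap, where 0% to 14% and 6.81% to 30% of the probe sets tested did so. The 8 without overlap came from reduced sets of arrays: without replicate 2 of E4 RBC (9.52% of all probe sets), on the 5 arrays with many signals under 1 (13.9%) and on the 3 with few (30.0%). Calls varied too. The count called was 6 when 16 was added before log2 (6.1% of all probe sets called higher) and with an intensity trend (5.73%). It was also 6 when probe sets Present on fewer than 2 blood arrays were dropped (14% of those kept). On the 3 arrays with few signals under 1 it was 0, where no probe set at all was called. Without quantile normalization 3 did not overlap (6.81% of all probe sets). LDHA ran from 6.48 to 9.38 and LDHB from 1.45 to 2.55. The only reversal was the weaker ENO1 probe set (-0.31). LDHA and LDHB have no other probe set.

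Leaving out 1 array gave 6.66 to 8.18 for LDHA, 1.45 to 2.55 for LDHB, 4.10 to 6.72 for the shift of LDHA against LDHB, 1150 to 1546 probe sets higher (1753 with all arrays) and 132 to 250 lower (311 with all). The fraction contrast called 649 higher and 47 lower on the 5 arrays with many signals under 1, and 0 and 0 on the other 3, which hold 2 RBC and 1 nRBC array. Calls lower in nRBC numbered 43 without quantile normalization, where 97.1% of calls were higher against 84.9% with it, 987 with 16 added (70.4% higher), 741 with the filter on Present calls (74.3% higher), 705 with the intensity trend and 109 with a replicate block. Arrays of the same number deviated together with correlations of 0.08 (E4) and -0.05 (E6) over all probe sets. As 20071 of these were Present on no blood array, the correlations cannot tell whether arrays of the same number shared a pool. With the block 3 members were called, and 1198 probe sets higher (3.12% of all). Stage calls in RBC became 1 with 16 added, 10 with the filter and 3 with the trend. Among other genes, EMB, GAPDH, SLC2A3, PFKFB1, NDRG1 and PDK4 lost their call in 1 to 3 alternatives, whereas ALDOC, ARNT2, PFKL, PFKP and PYGL lost it in 11 to 14, and of those that did not pass, SLC16A3 passed in 6, PKLR in 4, and FBP1, G6PC2, SLC16A1 and TALDO1 in 3 each.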
